A study of Mus musculus with 6 samples.

Results

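Immediate early genes are switched on within minutes of a signal, with no new protein needed, and the set described here comprises those genes together with the feedback genes that end the response. The set is a list of 37 gene symbols, grouped by role, and all 37 were among the 23955 symbols of the deposited table. The values are TPM (an abundance corrected for transcript length and scaled to 1 total per library) in 6 RNA sequencing libraries of mouse haematopoietic stem cells (HSCs). The tested libraries came from C57BL/6 db/db mice, which are homozygous for a mutation of the leptin receptor gene Lepr in every cell and become obese, and the controls were WT littermates of the same strain. All mice were 4 months old. In each of 3 experiments 1 db/db and 1 WT library was made from 20000 lineage-negative Sca-1+ c-Kit+ CD150+ CD48- bone marrow cells, so n = 3 in each group. Whether a library pooled several mice is not stated in the labels, and the cells passed through red cell lysis, density separation, magnetic enrichment and sorting before lysis.

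The pathway works as a loop. MAP kinases and related kinases act on factors that already sit on promoters, such as serum response factor at the CArG box and CREB at the cAMP response element (CRE), and these start transcription of FOS, JUN, EGR, NR4A and KLF factors. The products of the feedback genes then shut the signal off: dual-specificity phosphatases remove phosphate from MAP kinases, and ZFP36 proteins bind AU-rich elements in short-lived mRNAs and recruit deadenylases. BTG, TOB and GADD45 proteins restrain proliferation or respond to stress. In stem cells, members such as Egr1, Nr4a1, Btg2 and Junb are known for roles in quiescence, and many of these genes are also known to respond to tissue handling.

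Transcripts of the set were abundant in HSCs of both genotypes, and no member passed the test of db/db against WT HSCs. The members summed to 8783, 8181 and 8318 TPM in db/db replicates 1, 2 and 3 and to 7972, 5724 and 8028 TPM in WT replicates 1, 2 and 3. As TPM the low value belonged to WT replicate 2, and the remaining WT libraries lay close to the db/db range. As a share of all TPM the members' sum was 0.818% to 0.878% in db/db and 0.572% to 0.803% in WT libraries. After median-of-ratios scaling, explained below, the sums were 9600, 7229 and 6771 in db/db and 8724, 7024 and 7058 in WT replicates 1, 2 and 3. On that scale db/db replicate 3 was lowest, and replicate 1 was highest in each genotype. The mean of 14 members was at least 100 TPM in db/db and of 13 members in WT HSCs, levels reached by 4.99% and 4.38% of all symbols. In these bulk libraries, fewer cells that express a gene and less RNA per cell cannot be told apart.

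The 3 most abundant members were the mRNA decay factor gene Zfp36, the transcription factor gene Egr1 and the phosphatase gene Dusp1, which together made up 56.2% to 59.5% of the summed TPM of the set in db/db and 53.0% to 60.4% in WT libraries. By mean TPM over all symbols, Zfp36 ranked 78 in db/db and 91 in WT HSCs, Egr1 ranked 102 in db/db and 117 in WT HSCs, and Dusp1 ranked 122 in db/db and 131 in WT HSCs. In db/db HSCs every Zfp36 value lay above every Egr1 value, every Egr1 value above every Dusp1 value, and every Dusp1 value above every Fos value. In WT HSCs the values of Egr1 and Dusp1 overlapped. Over the whole order, these top genes included, the libraries were separate for 6 of 36 neighbouring pairs in db/db and for 4 of 36 in WT HSCs. Below Fos and its next neighbour, only Cited2 and Klf10 and Gadd45g and Cyr61 were separate in db/db HSCs. In WT HSCs only Klf2 and Ier5 were separate there. At the low end was Cyr61, a matricellular protein gene, which was listed at 0, 0 and 0.25 TPM in db/db libraries and at 0.48, 0.34 and 0 TPM in WT libraries. It was the 1 member below the mean of 1 TPM set for testing, which left 36 members among 11931 tested genes.

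**Figure D1:**
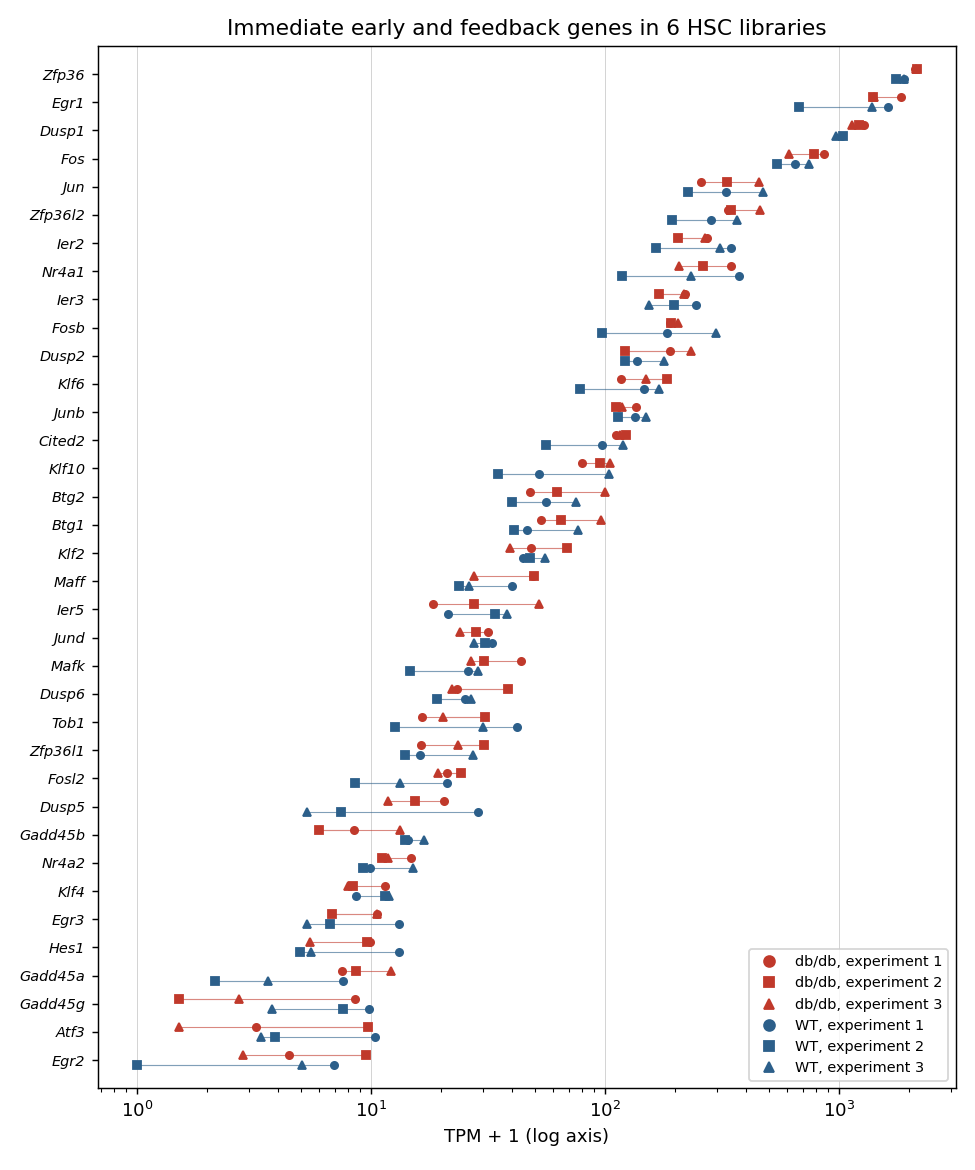
TPM + 1 on a log axis for each of the 36 tested members in each of the 6 libraries, ordered by mean level, with db/db (red) above WT (blue) for every gene and the marker shape giving the experiment. The levels spread from under 10 TPM for Egr2 and Atf3 to over 1000 TPM for Zfp36, Egr1 and Dusp1, and WT of experiment 2 (blue squares) is often the lowest value of a gene.

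The comparison of db/db with WT HSCs asked which members differed with genotype. In limma on log2(TPM + 1), fitted over all tested genes with Benjamini-Hochberg adjustment, 0 of 36 members were called higher and 0 lower at an adjusted p under 0.05, where 0.0335% of all tested genes were called higher and 0% lower. The adjusted p of the members ran from 0.899 to 0.996. Before adjustment, 1 member (Gadd45a) had p under 0.05 with higher values in db/db, or 2.78%, where 4.1% of all genes did. None had lower values at that p, where 1.25% of all genes did. With the experiment as a replicate block 3 members were higher at that level (Gadd45a, Klf10 and Zfp36l2) and 0 were lower, where 5.41% and 1.62% of all genes were. That fit called 0 members after adjustment, where 0.0335% of all genes were called higher and 0.0168% lower. The fold change was above 0 for 27 of 36 members, or 75%, beside 68.1% of all tested genes. The median log2 fold change of the members was 0.23 and that of all tested genes was 0.18, and after median-of-ratios scaling, which sets the middle of all genes equal across libraries, they were 0.038 and 0.0031, with 22 of 36 members above 0, or 61.1%, beside 50.3% of all genes. On scaled values 0 members passed after adjustment, where 0.00838% of all genes were called higher and 0% lower. Before adjustment Gadd45a had higher and Gadd45b lower values at p under 0.05, where 2.49% of all genes were higher and 2.98% lower. With the replicate block on scaled values the same genes did so, where 2.9% of all genes were higher and 3.82% lower, and 0 members passed after adjustment, where 0.0251% of all genes were called higher and 0.00838% lower.

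The experiments differed in how far apart their libraries were. In experiment 2 the median db/db minus WT difference of the members was 0.75 on the log2 scale, beside 0.45 for all tested genes, and 28 of 36 members were higher in db/db, where 72% of all genes were. The members' median in experiments 1 and 3 was -0.01 and -0.09, beside 0.00 and 0.09 for all genes, and 17 and 15 members were higher in db/db, where 49.9% and 57.3% of all genes were. Higher in db/db in all 3 experiments were 7 members (Maff, Egr1, Klf10, Dusp1, Zfp36, Zfp36l2 and Btg1), or 19.4%, where 22.7% of all tested genes were, and 3 members were lower in all 3 (Jund, Gadd45b and Gadd45g), or 8.33%, where 7.55% of all genes were. After scaling 2 members were higher in all 3 experiments (Zfp36l2 and Btg1), where 14.1% of all genes were, and 4 were lower (Jund, Ier2, Gadd45b and Gadd45g), where 13.8% of all genes were.

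**Figure D2:**
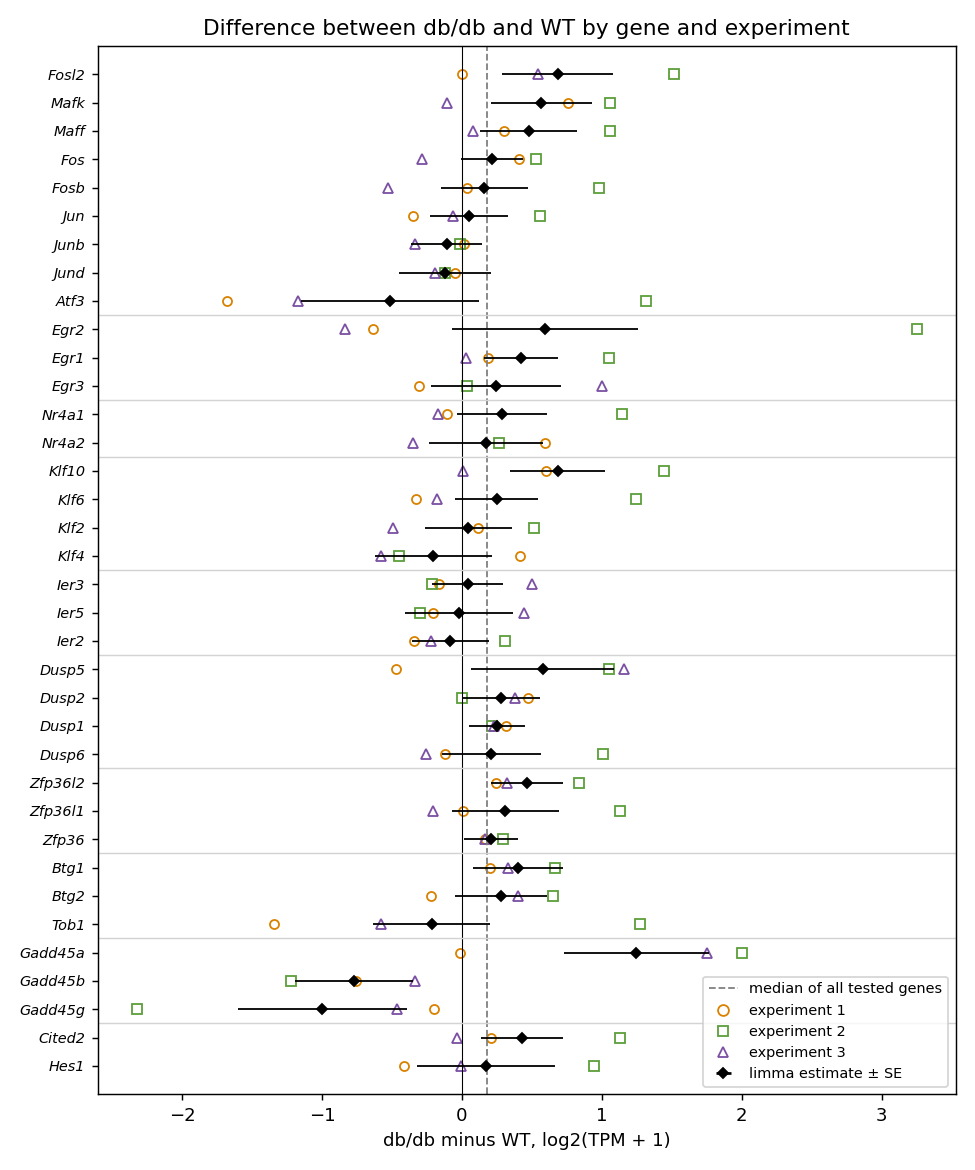
Difference between db/db and WT on the log2(TPM + 1) scale for each tested member, grouped by role. Black diamonds with bars are the limma estimate ± SE, open symbols are the 3 experiments, and the dashed line is the median of all tested genes at 0.18. The symbols of experiment 2 lie farthest to the right for many transcription factor genes, while Dusp1 and Zfp36 have all 3 experiments close together.

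Among the bZIP factors, FOS and JUN proteins pair to form AP-1, which binds the TGANTCA motif. Fos, the classic immediate early gene, was 860, 782 and 609 TPM in db/db replicates 1, 2 and 3 and 649, 543 and 743 TPM in WT replicates 1, 2 and 3. The groups overlapped, with db/db above WT in experiments 1 and 2 and below it in experiment 3 (log2 fold change 0.21, SE 0.22, limma adjusted p = 0.921). Jun, its main partner, was 256, 332 and 453 TPM in db/db and 327, 225 and 474 TPM in WT libraries, and both genotypes were highest in experiment 3. Its log2 fold change was 0.05 (SE 0.28, limma adjusted p = 0.989), and -0.15 after scaling. The summed FOS subunits (Fos, Fosb and Fosl2) were 1068, 996 and 832 TPM in db/db and 853, 647 and 1051 TPM in WT libraries. The summed JUN subunits (Jun, Junb and Jund) were 422, 470 and 593 TPM in db/db and 491, 366 and 649 TPM in WT libraries. The ratio of FOS to JUN transcripts was 2.53, 2.12 and 1.40 in db/db and 1.74, 1.76 and 1.62 in WT libraries, so it varied more within db/db than within WT and did not separate the genotypes.

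Fosl2, which encodes the FOS-related subunit Fra-2, was 20.03, 23.4 and 18.3 TPM in db/db and 20.05, 7.54 and 12.3 TPM in WT libraries. The fold change of 0.68 (SE 0.40, limma adjusted p = 0.919) rested on experiments 2 and 3, since the libraries of experiment 1 had almost the same level, and it was 0.36 without WT replicate 2. Mafk, a small MAF protein gene whose product lacks an activation domain, was 43.0, 29.4 and 25.6 TPM in db/db and 25.1, 13.6 and 27.7 TPM in WT libraries (0.57, SE 0.36, limma adjusted p = 0.919), and its fold change was 0.27 without WT replicate 2. Maff, another small MAF gene, was 41.2 ± 12.6 TPM in db/db and 29.1 ± 8.84 TPM in WT HSCs (SD, n = 3 each), and its groups overlapped too. Fosb was even among db/db libraries, at 188, 190.5 and 204 TPM, and spread over 184, 96.2 and 296 TPM in WT libraries. Junb and Jund, the JUN relatives known to restrain growth in several settings, were 121 ± 12.2 and 26.9 ± 3.82 TPM in db/db and 131 ± 18.1 and 29.3 ± 2.65 TPM in WT HSCs. Atf3, a stress-induced repressor, was low and uneven at 2.24, 8.67 and 0.51 TPM in db/db and 9.37, 2.89 and 2.40 TPM in WT libraries, and no genotype was the higher one in every experiment.

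The EGR genes encode zinc-finger factors that bind GC-rich sites, and Egr1 is known to hold HSCs in quiescence and in the niche. Egr1 was 1831, 1393 and 1414 TPM in db/db and 1612, 670.5 and 1388 TPM in WT libraries. Only WT replicate 2 stood below the rest, so that the within-experiment differences were 0.18, 1.05 and 0.03, and the fold change of 0.42 (SE 0.26, limma adjusted p = 0.919) was 0.04 without that library. Egr1 made up 98.9% to 99.4% of the summed EGR TPM over the 6 libraries. Egr2 was listed at 3.48, 8.51 and 1.84 TPM in db/db and at 5.96, 0 and 4.06 TPM in WT libraries. Egr3 was 9.64, 5.84 and 9.65 TPM in db/db and 12.2, 5.66 and 4.32 TPM in WT libraries, and neither gene separated the genotypes.

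NR4A proteins are orphan nuclear receptors that act without a known ligand. Nr4a1, known as a brake on stem cell cycling, was 346, 260.0 and 206 TPM in db/db and 372, 117 and 233 TPM in WT libraries. As with Egr1, WT replicate 2 was the low value, and the fold change of 0.29 (SE 0.32, limma adjusted p = 0.924) was -0.15 without it. Nr4a2 was 13.9, 10.2 and 10.9 TPM in db/db and 8.86, 8.28 and 14.2 TPM in WT libraries (0.17, SE 0.41, limma adjusted p = 0.958).

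The KLF genes encode Krüppel-like zinc-finger factors. Klf10, which is induced by TGF-beta and opposes growth, had the smallest p of the KLF genes. Its values were 78.5, 93.8 and 104 TPM in db/db and 51.5, 33.8 and 103 TPM in WT libraries. Klf10 in WT replicate 3 was as high as in db/db, and the groups overlapped (0.68, SE 0.34, limma adjusted p = 0.919, unadjusted p = 0.0566). The fold change ran from 0.32 without WT replicate 2 to 1.11 without WT replicate 3. Klf6 was 116, 184 and 149 TPM in db/db and 145, 76.8 and 169 TPM in WT libraries (0.25, SE 0.30, limma adjusted p = 0.925), and it was -0.09 without WT replicate 2. Klf2, a factor of quiescent lymphocytes and endothelium, and Klf4 were 51.0 ± 15.0 and 8.28 ± 1.92 TPM in db/db and 48.3 ± 5.46 and 9.66 ± 1.80 TPM in WT HSCs (SD, n = 3 each). Of the IER genes, Ier2 was 273, 204 and 266 TPM in db/db and 346, 165 and 309 TPM in WT libraries. Ier3, whose product protects cells from death signals, was 218, 168 and 217 TPM in db/db and 244, 196 and 153 TPM in WT libraries. Ier5 was 17.4, 26.4 and 51.0 TPM in db/db and 20.3, 32.8 and 37.3 TPM in WT libraries, with the lowest value of each genotype in experiment 1. The fold changes of Ier2, Ier3 and Ier5 were -0.08, 0.04 and -0.02 (limma adjusted p from 0.973 to 0.996), and each of them had either sign depending on which library was left out.

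The feedback side was led by Dusp1 and Zfp36, and their promoters are shown because these are the most abundant feedback members, with that of Dusp5 beside them for its paired motif. The letters are the 250 bases before the transcription start from RefSeq on GRCm38.p6, given 5′ to 3′ on the gene's strand, and capitals mark the CArG box and the EGR site in Zfp36, the CRE in Dusp1 and both CArG boxes in Dusp5.
Zfp36: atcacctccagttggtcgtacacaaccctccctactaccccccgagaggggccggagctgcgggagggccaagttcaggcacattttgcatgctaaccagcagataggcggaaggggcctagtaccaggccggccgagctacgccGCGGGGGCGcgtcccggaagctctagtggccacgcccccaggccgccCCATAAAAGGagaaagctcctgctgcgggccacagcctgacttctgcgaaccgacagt
Dusp1: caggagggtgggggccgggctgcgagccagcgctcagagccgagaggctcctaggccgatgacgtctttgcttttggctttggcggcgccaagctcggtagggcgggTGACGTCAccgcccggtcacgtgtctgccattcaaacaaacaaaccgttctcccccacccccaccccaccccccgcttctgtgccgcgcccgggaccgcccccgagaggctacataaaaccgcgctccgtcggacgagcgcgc
Dusp5: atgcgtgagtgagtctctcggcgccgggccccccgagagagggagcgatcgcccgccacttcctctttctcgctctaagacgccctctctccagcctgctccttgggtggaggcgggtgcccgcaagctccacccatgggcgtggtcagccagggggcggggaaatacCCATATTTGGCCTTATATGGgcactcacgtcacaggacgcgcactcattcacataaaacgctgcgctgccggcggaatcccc
These windows are chr7:28379229-28379478 on the minus strand, chr17:26508473-26508722 on the minus strand and chr19:53528895-53529144 on the plus strand. Of the 37 members, 31 had a promoter in the RefSeq table, and each motif was searched on both strands in the 250 bases. The CRE (TGACGTCA) was in 3 of the 31 (Btg2, Dusp1 and Maff), where 1.77% of 27025 genes had it. The CArG box was in 3 (Dusp5, Egr2 and Zfp36), where 1.62% of all genes had it. The EGR site (GCGNGGGCG) was in 12, among them Zfp36, Fosb and Nr4a1, where 5.33% of all genes had it, and the AP-1 site (TGANTCA) was in 1 (Zfp36l1), where 7.82% had it. In Zfp36 the CArG box spans bases -58 to -49 and the EGR site bases -105 to -97, counted back from the start. In Dusp5 the CArG boxes lie side by side, from -82 to -73 and from -72 to -63, and in Dusp1 the CRE spans -143 to -136. A match describes the letters and does not show binding. The members and all genes were not matched for base composition, and sites outside the 250 bases were not searched.

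Dusp1 encodes a nuclear phosphatase that inactivates p38 and JNK, and it was 1283, 1212 and 1137 TPM in db/db and 1032, 1043 and 971 TPM in WT libraries. The groups did not overlap on the TPM scale, with all 3 db/db libraries above all 3 WT libraries, and the experiments differed by 0.31, 0.22 and 0.23. Its limma estimate of 0.25 (SE 0.20, adjusted p = 0.920) was not a call, and after scaling it was 0.06 and the groups overlapped. Dusp1 made up 81.2% to 87.5% of the summed TPM of the 4 phosphatase genes in db/db and 82.4% to 87.8% in WT libraries. Dusp2, which acts on ERK in immune cells, was 189, 121 and 232 TPM in db/db and 137, 121 and 178 TPM in WT libraries, with the experiment 2 libraries level (0.28, SE 0.28, limma adjusted p = 0.920). Its fold change ran from 0.078 without db/db replicate 3 to 0.55 without db/db replicate 2. Dusp5, a nuclear ERK phosphatase with the paired CArG boxes shown above, was 19.5, 14.4 and 10.8 TPM in db/db and 27.5, 6.46 and 4.31 TPM in WT libraries. In WT replicate 1 Dusp5 was the highest of all libraries, and the fold change of 0.58 (SE 0.51, limma adjusted p = 0.920) ran from 0.09 to 1.30 over the fits that left out 1 library. Dusp6, the cytoplasmic ERK phosphatase, was 27.0 ± 9.15 TPM in db/db and 22.7 ± 4.00 TPM in WT HSCs (SD, n = 3 each).

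Zfp36 encodes tristetraprolin, which destabilises mRNAs with AU-rich elements, including those of cytokines and of immediate early genes. Zfp36 was 2115, 2142 and 2127 TPM in db/db and 1888, 1744 and 1898 TPM in WT libraries. All db/db values lay above all WT values on the TPM scale, and the spread within a genotype was small, at 2128 ± 13.9 TPM in db/db and 1843 ± 86.2 TPM in WT HSCs (SD, n = 3 each). The within-genotype SD of its log2 value was 0.05, and 3 of 11931 tested genes had a smaller one; for Dusp1 it was 0.07, and 26 genes had a smaller one. This evenness held on the TPM scale and not after scaling, where the SDs were 0.20 and 0.30 and 1344 and 3549 genes had smaller ones. The log2 fold change of Zfp36 was 0.21 (SE 0.19, limma adjusted p = 0.920), near the 0.18 of the median gene, and 0.01 after scaling, where the groups overlapped. Counting both, 2 of 36 members had db/db libraries all above WT libraries (Dusp1 and Zfp36), or 5.56%, where 7.85% of all tested genes did, and after scaling 0 did, where 5.67% of all genes did.

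Zfp36l2, a relative that is known to be needed for HSC maintenance in mice, was 335, 345 and 457 TPM in db/db and 284, 192 and 366 TPM in WT libraries. It was higher in db/db in every experiment, by 0.24, 0.84 and 0.32 as TPM, and also after scaling, but the groups overlapped through WT replicate 3. The log2 fold change was 0.47 (SE 0.26, limma adjusted p = 0.919), or 0.27 after scaling and 0.22 without WT replicate 2. Zfp36l1 was 15.4, 29.4 and 22.5 TPM in db/db and 15.3, 12.9 and 26.2 TPM in WT libraries, the lowest level of the 3 relatives in all 6 libraries, and its fold change of 0.31 was 0.099 without db/db replicate 2.

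The BTG and TOB genes encode antiproliferative adaptors that bind the CCR4-NOT deadenylase. Btg1 was 52.2, 63.9 and 95.2 TPM in db/db and 45.3, 39.9 and 75.8 TPM in WT libraries, higher in db/db in every experiment but with overlapping groups (0.40, SE 0.32, limma adjusted p = 0.920). Without db/db replicate 3 the fold change was 0.16, and without WT replicate 3 it was 0.67. Btg2, a p53 target, was 46.9, 61.6 and 98.8 TPM in db/db and 54.8, 39.0 and 74.5 TPM in WT libraries (0.28, SE 0.33, limma adjusted p = 0.925). Both genes were highest in experiment 3 in each genotype. Tob1 differed in sign between experiments, lower in db/db HSCs in 1 and 3 and higher in 2, at 15.6, 29.6 and 19.3 TPM in db/db and 41.0, 11.7 and 29.2 TPM in WT libraries (-0.22, SE 0.42, limma adjusted p = 0.945).

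The GADD45 genes encode small acidic proteins that respond to DNA damage and growth arrest and activate a p38 and JNK kinase. They were low in HSCs, and their differences had unlike signs. Gadd45a was 6.52, 7.65 and 11.2 TPM in db/db and 6.61, 1.16 and 2.63 TPM in WT libraries. The experiment 1 libraries had almost the same level and the others differed by 2.002 and 1.75, so the groups overlapped through WT replicate 1. Its limma estimate of 1.25 (SE 0.52) had an unadjusted p of 0.0256 and an adjusted p of 0.899. It was 1.09 after scaling, and over fits without 1 library it ran from 0.82 without WT replicate 2 to 1.73 without WT replicate 1. Gadd45b, an NF-kB and TGF-beta target, was 7.49, 4.99 and 12.3 TPM in db/db and 13.3, 13.0 and 15.8 TPM in WT libraries. All db/db libraries lay below all WT libraries, as TPM and after scaling, which made 1 of 36 members, or 2.78%, where 2.32% of all tested genes did so as TPM and 4.75% after scaling. The log2 fold change was -0.77 (SE 0.42, limma adjusted p = 0.919), or -0.95 after scaling (unadjusted p = 0.0189, adjusted p = 0.839), and -0.50 without db/db replicate 2. Gadd45g was 7.51, 0.52 and 1.74 TPM in db/db and 8.78, 6.61 and 2.79 TPM in WT libraries. It was lower in db/db in all 3 experiments with overlapping groups (-0.998, SE 0.61, limma adjusted p = 0.919), and the value was -0.44 without db/db replicate 2.

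A share within the family does not depend on how libraries are scaled. Gadd45a made up 30.3%, 58.1% and 44.5% of the summed GADD45 TPM in db/db and 23.0%, 5.59% and 12.4% in WT libraries, without overlap. The same share was computed for every member within its role group, and for all other members the genotypes overlapped. The Gadd45a share was chosen after its values were seen and was not tested. Within experiment 1 the shares were 30.3% in db/db and 23.0% in WT, the closest of the 3 experiments.

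**Figure D3:**
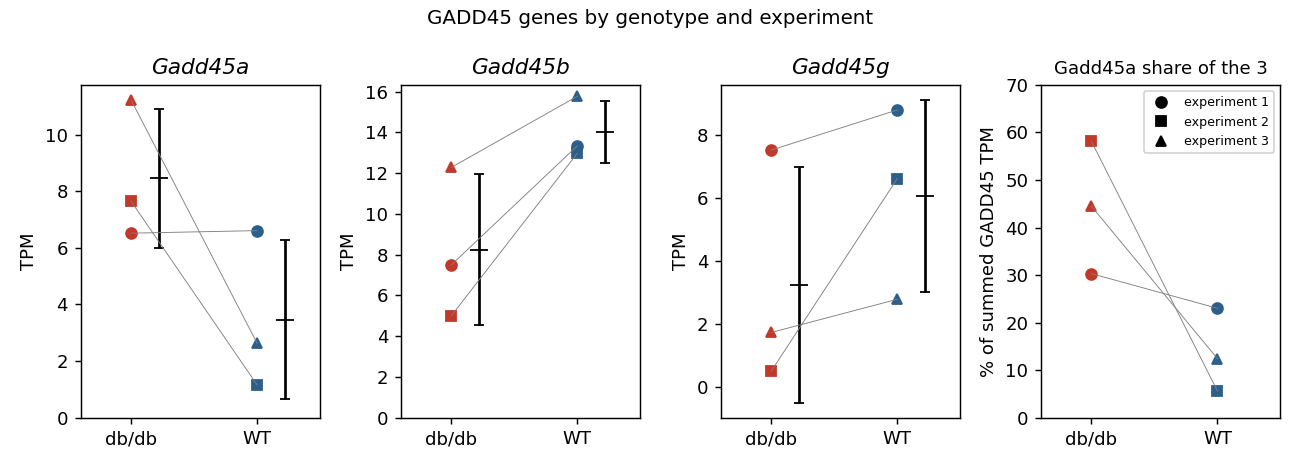
TPM of Gadd45a, Gadd45b and Gadd45g, and the share of Gadd45a in their sum in percent, for db/db (left) and WT (right) libraries. Marker shapes and grey lines join the libraries of an experiment, and black bars are the mean ± SD (n = 3). Gadd45b has all db/db points below all WT points, and Gadd45a has WT of experiment 1 level with the db/db points.

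Of the remaining members, Cited2, a transcriptional co-regulator known to be needed for HSC maintenance, was 110.5, 122 and 115 TPM in db/db and 95.8, 55.0 and 118 TPM in WT libraries. The db/db libraries were even and WT replicate 2 was again low (0.43, SE 0.29, limma adjusted p = 0.919), and without it the fold change was 0.12. Hes1, a Notch target, was 8.88, 8.58 and 4.48 TPM in db/db and 12.2, 3.99 and 4.52 TPM in WT libraries (0.17, SE 0.49, limma adjusted p = 0.968).

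Members varied together by library. WT replicate 2 had the lowest value of 23 of the 36 tested members and the highest of none, where 34.1% of all tested genes were lowest there. After scaling it was lowest for 16 members and highest for 3, where 18.3% of all genes were lowest there. The median deviation of the members from their mean over 6 libraries was -0.56 in that library, beside -0.28 for all genes, and -0.25 after scaling, beside -0.0018. WT replicate 1 was the highest library for 10 members and the lowest for 0, on either scale, where as TPM 8.25% of all genes were highest and 18.7% lowest there, and after scaling 15.2% were highest and 15.5% lowest. After scaling, the medians were 0.28 in db/db replicate 1 and 0.19 in WT replicate 1, the experiment 1 libraries, and -0.04 and -0.20 in db/db replicates 2 and 3. Without WT replicate 2 the median log2 fold change of the members was 0.046, beside 0.077 for all tested genes, with 22 of 36 above 0.

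**Figure D4:**
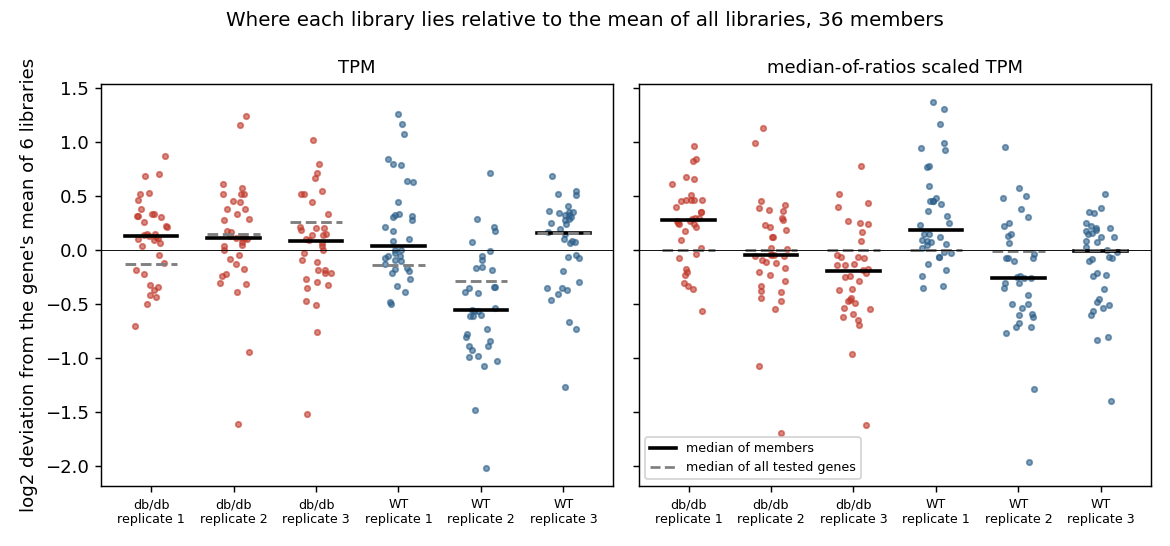
Log2 deviation of each of the 36 tested members from its mean over the 6 libraries, as deposited TPM (left) and after median-of-ratios scaling (right), for db/db (red) and WT (blue) libraries. Solid lines are the member medians and dashed lines the medians of all tested genes. WT replicate 2 has a member median of -0.56 as TPM and -0.25 scaled, and after scaling the experiment 1 libraries of both genotypes lie above 0.

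Facts of the libraries are given beside this pattern, and a link between them and the members was not tested. The size factors of the scaling ran from 0.915 to 1.23 in db/db and from 0.815 in WT replicate 2 to 1.14 in WT libraries. The ribosomal RNA symbol Rn45s took 6.34% to 8.51% of TPM in db/db and 6.46% to 10.4% in WT libraries. It was alike in WT replicates 1 and 2, at 10.43% and 10.36%. The sorted cells were described with marker lists, which do not measure purity. All 12 HSC markers had a mean of at least 1 TPM, a level that 11931 of 23955 symbols reached. Their summed levels were 2033 to 2386 TPM in db/db and 1419 to 2466 TPM in WT libraries. The B cell genes Ms4a1, Pax5 and Ebf1 and the lymphocyte genes Cd3e, Cd3g and Klrd1 were at 0 in all 6 libraries, as were 8489 of the 23955 symbols. Of the same lists, Cd79b was 59.9, 38.8 and 28.8 TPM in db/db and 60.9, 42.45 and 32.7 TPM in WT libraries. Nkg7 was 187, 200.1 and 125 TPM in db/db and 69.8, 115 and 50.7 TPM in WT libraries (limma adjusted p = 0.351). Megakaryocyte and platelet markers summed to 487 to 780 TPM in db/db and 398 to 661 TPM in WT libraries. Macrophage and dendritic cell markers summed to 39.9 to 84.3 TPM in db/db and 24.6 to 79.7 TPM in WT libraries. Granulocyte and monocyte markers were present, with 13 of 14 in the table. Their sum was 4196, 2332 and 1654 TPM in db/db and 4793, 555 and 480.2 TPM in WT libraries, so the highest sum was in WT replicate 1. In limma 8 of the 13 were higher in db/db and 0 lower at an unadjusted p under 0.05. Of all tested genes 4.1% were higher and 1.25% lower at that p. After adjustment 0 of the 13 passed, where 0.0335% of all tested genes were called higher. Their sum was highest in the experiment 1 libraries of both genotypes, as were the scaled member medians, and the part of these markers in the members' levels was not tested. Erythroid markers summed to 2029, 1609 and 986 TPM in db/db and 633, 668 and 846 TPM in WT libraries, without overlap, and the globin gene Hbb-b2 among them was called higher in db/db by limma (adjusted p = 0.000688), and the part of these markers was likewise not tested. Lepr itself was 1.51, 2.44 and 2.04 TPM in db/db and 2.34, 2.93 and 2.79 TPM in WT libraries, and since the mutation is known to alter splicing, a total level does not check the genotype.

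The spread between libraries of a genotype was set beside that of other genes at like levels. Among the 11 members with a mean of 100 to 1000 TPM the median within-genotype SD was 0.40 on the log2 scale, beside 0.30 for 978 genes of that range, and 8 of the 11 lay above that median. After scaling it was 0.33 beside 0.28, again with 8 of 11 above. Nr4a1 had the largest SD of the 11, at 0.65 as TPM and 0.68 scaled. Among the 15 members with 10 to 100 TPM the medians were 0.46 for the members and 0.42 for 6479 genes, and Dusp5 was the most variable at 0.95. After scaling these medians were 0.38 for the members and 0.35 for all genes. The 7 members with 1 to 10 TPM had a median of 0.69, beside 0.59 for 4338 genes, and 0.73 beside 0.56 after scaling. For the 3 members of at least 1000 TPM the order was the other way, at 0.073 beside 0.26 for 136 genes as TPM and 0.30 beside 0.39 after scaling, with Egr1 alone above the median of all genes on either scale.

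The rest of the pathway was described from lists of other genes. In the MAP kinase cascade upstream of the set, 0 of 24 genes were called in either direction by limma at an adjusted p under 0.05. At an unadjusted p under 0.05 there were also 0, where 4.1% of all tested genes were higher and 1.25% lower. Of the 24 genes, 21 had a fold change above 0, where 68.1% of all tested genes did, with a median of 0.18. The most abundant was Mapk3, the ERK1 kinase gene, at 168 ± 6.08 TPM in db/db and 152 ± 39.5 TPM in WT HSCs (SD, n = 3 each). The genes of smallest p were Mapk8, which encodes JNK1, at 8.23 ± 1.07 TPM in db/db and 4.55 ± 0.872 TPM in WT HSCs, and the RAS exchange factor gene Sos2, at 12.7 ± 6.04 TPM in db/db and 6.99 ± 1.76 TPM in WT HSCs (limma adjusted p = 0.919 each). Of 15 factors and co-activators that switch on immediate early genes, 14 had a fold change above 0, where 68.1% of all tested genes did. Their median as TPM was 0.46 beside 0.18 for all genes, and 0 passed on either p. They summed to 549, 772 and 702 TPM in db/db and 486, 375 and 701 TPM in WT replicates 1, 2 and 3. WT replicate 2 was thus the lowest, and the experiment 3 libraries were level. The most abundant was Atf1 at 126 ± 37.8 TPM in db/db and 96.6 ± 51.8 TPM in WT HSCs. Those of smallest p were Atf2 at 64.0 ± 20.5 TPM in db/db and 42.0 ± 8.22 TPM in WT HSCs and the ETS factor gene Elk3 at 62.9 ± 13.0 TPM in db/db and 43.5 ± 12.7 TPM in WT HSCs (limma adjusted p 0.919 to 0.920).

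Other inducible genes outside the set gave 0 calls among 26 tested in limma, where 0.0335% of all tested genes were called higher. Before adjustment 1 (Rhob) was higher and 0 were lower at p under 0.05, where 4.1% and 1.25% of all tested genes were. Rhob encodes an inducible small GTPase and stood at 183, 230 and 238 TPM in db/db and 161, 88.8 and 169 TPM in WT libraries (log2 fold change 0.68, SE 0.28, limma adjusted p = 0.883). Its db/db libraries all lay above its WT libraries as TPM, and the same held for Myc, Klf9 and Plk3 in this list. The groups of the other tested genes of the list overlapped. Of all tested genes, 7.85% had db/db libraries all above WT libraries. Mcl1, an anti-apoptotic gene and the most abundant of them, was 251 ± 36.2 TPM in db/db and 186 ± 78.2 TPM in WT HSCs, and Klf9 was 15.1 ± 7.12 TPM in db/db and 7.32 ± 1.83 TPM in WT HSCs (limma adjusted p = 0.919 each). Among other feedback inhibitors of MAP kinases, 0 of 12 tested genes passed on either p. Spry1 was 18.6, 17.0 and 20.4 TPM in db/db and 13.2, 10.96 and 13.4 TPM in WT libraries (0.54, SE 0.37, limma adjusted p = 0.919). Spry1 had no overlap either, with db/db higher as TPM, and neither did Dusp10 in this list. In the lists described before, the same held for Mapk8 in the cascade and for Atf2 and Crtc3 among the activating factors. The share of all tested genes was again 7.85%. Dusp10 was 9.22 ± 0.626 TPM in db/db and 5.41 ± 2.88 TPM in WT HSCs, and Spry2 was 30.7 ± 12.7 TPM in db/db and 23.6 ± 5.48 TPM in WT HSCs. Of the 12 CCR4-NOT genes and partners that ZFP36 and BTG proteins recruit, 11 had a fold change above 0, where 68.1% of all tested genes did. Their median as TPM was 0.26 beside 0.18 for all genes, and 0 passed on either p. Their sum was lowest in WT replicate 2, at 1110 TPM. Cnot1, the scaffold subunit, was 101 ± 25.9 TPM in db/db and 71.6 ± 13.7 TPM in WT HSCs, and the poly(A)-binding protein gene Pabpc1 was 1446 ± 336 TPM in db/db and 1149 ± 306 TPM in WT HSCs (limma adjusted p 0.919 to 0.920).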

How the data were processed

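RNA from 6 libraries, 3 from db/db and 3 from WT mice, was sequenced as pairs of 75 nucleotides. The authors deposited TPM for each gene symbol. Their processing notes name RSEM, Bowtie2 and mm9, without versions, and no label names the annotation. TPM keeps no read depth, so no counting error could be attached, and the error is the spread between libraries.

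Log2(TPM + 1) was computed for the 11931 of 23955 symbols with a mean of at least 1 TPM and fitted with limma 3.58.1 in R 4.3.3, with genotype as the only term, trended moderation (17.7 prior and 4 residual degrees of freedom), two-sided tests and Benjamini-Hochberg adjustment over all tested genes, with a call at an adjusted p under 0.05. Fold changes are on this log2 scale and understate changes of low genes. The fit was tested on simulated data.

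The members, role groups, other lists and alternatives were chosen with earlier results of these data known. All members are named. Within each role group the 2 most abundant and the 2 of smallest p are given per library, and from each other list the most abundant and the 2 of smallest p.

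The labels give each experiment number to 1 db/db and 1 WT library, which pairs them. Deviations from group means correlated across genes at 0.04, 0.01 and 0.16 within experiments and at -0.12 to 0.08 between them. No pair of libraries shared identical values in more than 0.654% of tested genes. Alternatives were other pseudocounts (0.1 and 0.5), filters and scalings, untrended moderation, a robust prior, a replicate block and leaving out each library. Median-of-ratios scaling divided TPM by 1 factor per library. Promoters came from RefSeq on GRCm38.p6, and no coordinates from mm9 were used.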

Additional observations from a re-analysis of the deposited data

How the results depend on the processing

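No member was called in either direction under any of the 16 alternatives, and the smallest adjusted p was 0.437 (Klf10 without WT replicate 3, limma). The number of members at an unadjusted p under 0.05, which was 1 in limma, was 2 after median-of-ratios scaling, with or without the replicate block, after quantile normalization and with the robust prior, 3 with the replicate block on TPM and 0 without a filter. It ran from 0 (without WT replicate 2) to 4 (without WT replicate 1) over fits that left out 1 library, and was 3 with WT replicate 3 left out and 2 with db/db replicate 1 left out. The count of all genes called, 4 in limma, was 6 with the replicate block, 1 after median-of-ratios scaling, after quantile normalization and with the robust prior, and 0 without a trend or without a filter. It ran from 0 (without db/db replicate 2) to 16 (without WT replicate 1) when 1 library was left out. The replicate block changed no call of a member. The median log2 fold change of the members was 0.046 to 0.32 over the fits that left out 1 library. It was 0.038 after median-of-ratios scaling, with or without the replicate block, and 0.084 after quantile normalization.

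None of the fold changes that changed sign was a call, and the cause was not tested. After median-of-ratios scaling, with or without the replicate block, the fold changes of Fosb, Jun, Nr4a2, Klf2 and Ier3 were -0.033, -0.15, -0.0053, -0.15 and -0.15. After quantile normalization those of Fosb, Jun, Nr4a2, Klf2, Ier3 and Hes1 were -0.014, -0.052, -0.039, -0.13, -0.063 and -0.020. Without 1 library the values ran from -0.26 to 0.54 for Fosb, -0.22 to 0.32 for Jun, -1.22 to 0.12 for Atf3, -0.26 to 1.14 for Egr2, -0.027 to 0.63 for Egr3, -0.15 to 0.68 for Nr4a1, -0.17 to 0.23 for Klf2, -0.092 to 0.47 for Klf6, -0.41 to 0.12 for Ier2, -0.13 to 0.21 for Ier3, -0.43 to 0.32 for Ier5, -0.045 to 0.35 for Dusp6, -0.011 to 0.52 for Btg2, -0.71 to 0.15 for Tob1 and -0.086 to 0.61 for Hes1. Since TPM keeps no depth, the precision of the low members Atf3, Egr2 and Gadd45g is unknown.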
